A study of Mus musculus with 14 samples.

Results

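The cyclin-dependent kinase (Cdk) inhibitor genes were followed in the epithelium of the mouse colon. They were taken by name as the 7 genes of the Cip/Kip family (Cdkn1a, Cdkn1b and Cdkn1c) and the Ink4 family (Cdkn2a, Cdkn2b, Cdkn2c and Cdkn2d), out of 37680 genes in the count table, and 6 of the 7 had enough counts to be tested. RNA-seq had been done on epithelium stripped from the whole colon of adult mice with EDTA, as 4 libraries from WT mice on water, 4 labelled as Smad4 KO on water, 3 from WT mice and 3 from Smad4 KO mice, the last 2 groups after 3 d of 2.5% dextran sulfate sodium (DSS) in the drinking water, which damages the lining of the colon. The KO mice carried floxed Smad4 alleles (Smad4 f/f) and a tamoxifen-inducible Cre under the villin promoter (Villin-CreERT2), which acts in intestinal epithelial cells only, and the study's methods name this transgene for mutants and controls alike. Its treatment scheme shows tamoxifen for the Smad4 KO mice, so that the effect of tamoxifen and that of the genotype cannot be told apart. The labels do not say whether the libraries of a group came from separate mice, so p-values measure the spread between libraries.

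Cdk inhibitors are the brakes of the cell cycle. The Cip/Kip proteins p21 (Cdkn1a), p27 (Cdkn1b) and p57 (Cdkn1c) bind complexes of cyclins with several Cdks, whereas the Ink4 proteins p16 (Cdkn2a), p15 (Cdkn2b), p18 (Cdkn2c) and p19 (Cdkn2d) bind Cdk4 and Cdk6 and keep them from the D-type cyclins. TGF-β is known to induce Cdkn1a and Cdkn2b through Smad proteins, for which Smad4 is the common partner, and p53 is the classic inducer of Cdkn1a after DNA damage. Cdkn2a encodes p16 and, from another first exon and reading frame, Arf, and the gene-level counts pool both. Cdkn1c is an imprinted gene.

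Cdkn1a lies on chromosome 17 of mm9, from 29227924 to 29237667, on the plus strand, as a protein-coding gene with 3 annotated transcripts. RefSeq's promoter table (GRCm38.p6, placed on mm9 by exact match) held 9 promoters for 6 of the 7 genes, and lists 2 for Cdkn1a, 2790 bases apart. The upstream 250 bases of both are shown with that of Cdkn2b, because these are the members that the TGF-β pathway is best known to induce. Capitals mark each SMAD box (CAGAC or its complement GTCTG) and, in the first Cdkn1a promoter, a match to the p53 response element, a pair of adjacent binding motifs with at most 1 mismatch, which was searched for after these letters had been seen. The first Cdkn1a promoter is chr17:29227674-29227923 and the second chr17:29230464-29230713, both on the plus strand, and that of Cdkn2b is chr4:88956942-88957191 on the minus strand.
Cdkn1a promoter 1: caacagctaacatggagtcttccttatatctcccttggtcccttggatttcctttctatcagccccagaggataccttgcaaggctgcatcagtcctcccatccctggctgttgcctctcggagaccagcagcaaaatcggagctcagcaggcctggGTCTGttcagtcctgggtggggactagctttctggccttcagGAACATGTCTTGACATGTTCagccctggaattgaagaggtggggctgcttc
Cdkn1a promoter 2: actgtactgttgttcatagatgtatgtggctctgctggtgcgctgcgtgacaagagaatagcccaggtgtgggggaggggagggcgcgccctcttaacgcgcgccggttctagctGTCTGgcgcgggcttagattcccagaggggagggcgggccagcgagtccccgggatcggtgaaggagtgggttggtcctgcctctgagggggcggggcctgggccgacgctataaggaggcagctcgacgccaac
Cdkn2b promoter: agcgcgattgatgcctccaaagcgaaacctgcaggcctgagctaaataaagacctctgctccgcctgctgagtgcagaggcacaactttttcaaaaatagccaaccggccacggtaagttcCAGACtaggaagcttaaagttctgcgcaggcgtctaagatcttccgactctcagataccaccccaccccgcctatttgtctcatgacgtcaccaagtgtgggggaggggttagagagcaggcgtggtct

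Each of these windows holds 1 SMAD box, which 42.2% of the 32851 promoter windows of the table hold. The pair of p53 motifs was found in 0.0578% of them, and among the 9 promoters of the inhibitors only in the first of Cdkn1a, 51 to 32 bases before the start. The longer GC-rich SMAD motif GGCGCC, found in 9.59% of all windows, occurred in a promoter of Cdkn1b, Cdkn2a and Cdkn2c and in neither of Cdkn1a. The second Cdkn1a promoter holds 2 GC boxes (GGGCGG or CCGCCC, in 32.7% of all windows). Gene-level counts do not separate transcripts from the 2 starts of Cdkn1a.

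Total counts ran from 12882827 to 26087231 per library. Mitochondrial genes took 4.05% to 32.8% of the counts, with the highest shares in WT water replicates 3 and 4 and Smad4 KO water replicate 4. The epithelial markers Epcam, Cdh1, Krt8, Krt18, Krt19, Vil1, Cdx1 and Cdx2 were present in every library and summed to 11750 to 18650 CPM (counts scaled to the size of each library with TMM factors). Smad4 itself, the deleted gene, was at 118.5 to 159.3 CPM in WT on water and 170.2 to 182.3 CPM in WT after DSS. It was at 40.4 to 43.9 CPM in the Smad4 KO after DSS and at 35.1 to 46.8 CPM in replicates 2 to 4 of the Smad4 KO on water. The library labelled Smad4 KO water replicate 1 had 158.1 CPM, within the WT range. It goes against its label, and values of the inhibitors that rest on it are given with and without it. The study's figure legends count 4 replicates for WT on water and 3 for the Smad4 KO on water, without naming the libraries.

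**Figure D1:**
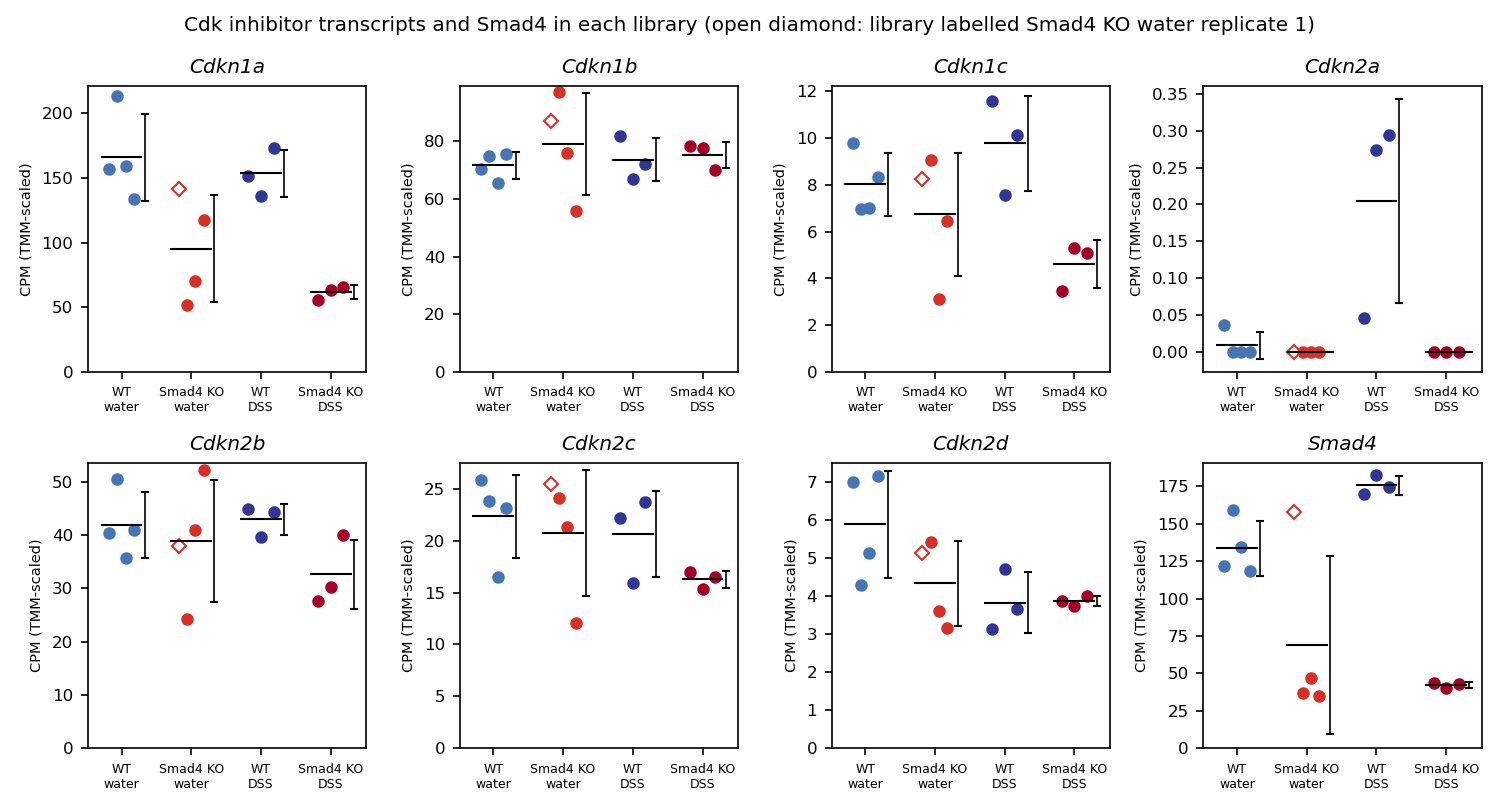
TMM-scaled CPM (vertical axes, from 0) of the 7 inhibitor genes and Smad4 in each library of the 4 groups (horizontal axes), with the group mean (line) and SD (bar). Cdkn1a in the Smad4 KO after DSS lies between 55.6 and 65.9 CPM, below every WT library, and the open diamond marks the library labelled Smad4 KO water replicate 1, whose Smad4 level is that of WT.

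Per kilobase of exon, Cdkn1a was the most abundant of the 7 transcripts in every library, and so in every group on average. In WT on water it reached 74.7 ± 15.1 CPM per kb (SD, n = 4), followed by Cdkn2b with 30.1 ± 4.45, Cdkn1b with 15.7 ± 1.04 and Cdkn2c with 8.31 ± 1.502 (n = 4 each), and the ranges of these neighbours did not overlap. Cdkn2d (4.64 ± 1.11 CPM per kb) and Cdkn1c (4.15 ± 0.69) overlapped each other, and Cdkn2a had 1 count in all. The order of the means down to Cdkn2c was the same in the other groups, but in the Smad4 KO the ranges of Cdkn1a and Cdkn2b overlapped, both on water (42.9 ± 18.6 and 27.9 ± 8.22 CPM per kb, n = 4) and after DSS (27.7 ± 2.42 and 23.4 ± 4.65 CPM per kb, n = 3). With replicate 1 of the Smad4 KO on water left out, the means there were 35.99 ± 15.3 for Cdkn1a and 28.1 ± 10.1 for Cdkn2b (n = 3), and the ranges overlapped too. This overlap is between libraries. Within each Smad4 KO library Cdkn1a was above Cdkn2b, most narrowly in replicate 3 after DSS (29.65 and 28.67 CPM per kb). The ranges of Cdkn2b and Cdkn1b also overlapped in the Smad4 KO on water, with and without replicate 1. In replicate 2 on water Cdkn1b was above Cdkn2b (21.34 and 17.46 CPM per kb).

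Cdkn1a made up 48.2% to 58.3% of the summed level per kb of the 7 genes in WT on water and 50.4% to 54.6% in WT after DSS. Its share was 34.2% to 36.2% in the Smad4 KO after DSS and 29.0% to 49.7% in the libraries labelled Smad4 KO on water. The highest of these was replicate 1, and the other 3 reached at most 46.9%, below every WT library on water. The summed level itself was 118.3 to 142.6 CPM per kb in WT after DSS and 73.2 to 85.6 in the Smad4 KO after DSS, so that these groups did not overlap in either quantity. In bulk epithelium, fewer cells with a transcript and less of it per cell cannot be told apart.

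**Figure D2:**
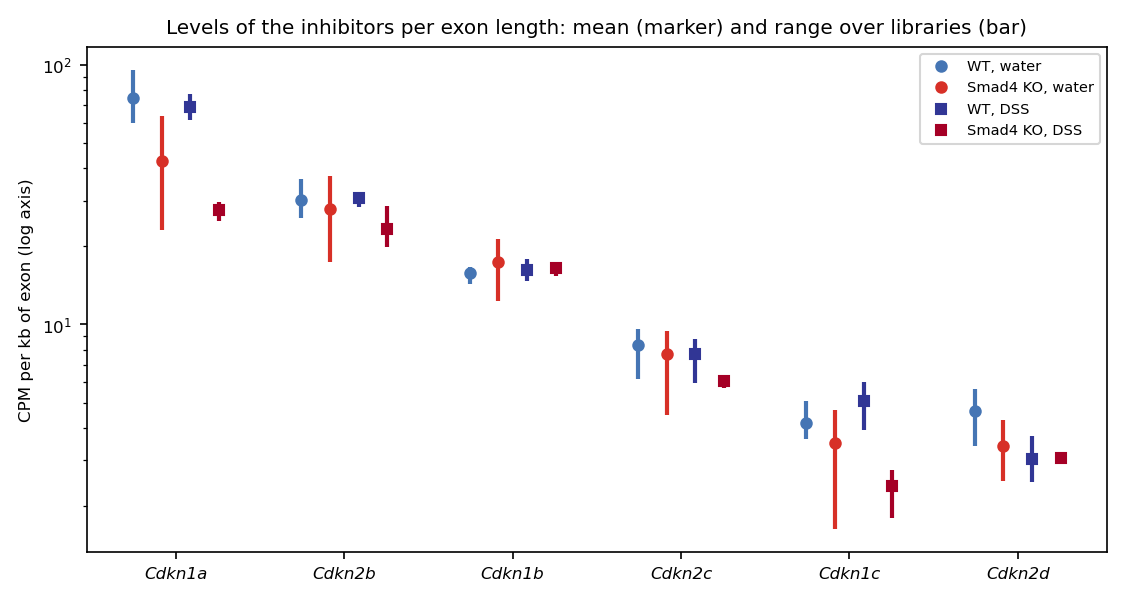
CPM per kb of exon (vertical log axis) of the 6 inhibitor genes that could be tested, with the group mean (marker) and the range over libraries (bar) in each of the 4 groups. The mean of Cdkn1a is 69.1 CPM per kb in WT and 27.7 in the Smad4 KO after DSS, where that of Cdkn2b is 23.4. The group means of Cdkn1b lie between 15.7 and 17.4, with single libraries from 12.3 to 21.3 in the Smad4 KO on water.

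The comparison of Smad4 KO with WT after DSS asks how these inhibitors stand in injured epithelium without Smad4. Cdkn1a, which encodes p21, was lower in the Smad4 KO. It had 151.4, 136.5 and 173.0 CPM in WT replicates 1 to 3 and 55.6, 63.4 and 65.9 CPM in the Smad4 KO. Every KO library was below every WT library, with means of 153.6 ± 18.3 and 61.6 ± 5.38 CPM (SD, n = 3 each). In edgeR's quasi-likelihood test over 15127 genes, the log2 fold change was -1.31 (standard error, SE, 0.11, 95% interval -1.57 to -1.06, Benjamini-Hochberg adjusted p = 0.0022), a level 2.49-fold lower. Cdkn1a was 1 of 63 genes called lower, 0.416% of the genes tested, and the only one called among the 6 inhibitors tested.

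This call for Cdkn1a held in 6 of the 7 fits with a library left out and in 8 of the 9 other alternatives. With all 14 libraries in 1 model the log2 fold change was -1.32 with an edgeR adjusted p of 0.25. A model of 13 libraries, from which only Smad4 KO water replicate 1 was dropped, gave -1.32 with an edgeR adjusted p of 0.096. Smad4 too had an edgeR adjusted p of 0.21 in the model of all 14 libraries, against 1.5e-05 in the fit of the 6 DSS libraries. Within the libraries whose names begin with D (2 WT and 3 Smad4 KO), the log2 fold change of Cdkn1a was -1.22 (edgeR adjusted p = 0.011).

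Cdkn1b, which encodes p27, did not show this difference. It had 81.8, 67.0 and 72.1 CPM in WT and 78.2, 77.7 and 69.9 CPM in the Smad4 KO, and the groups overlapped. The log2 fold change was 0.04 with a 95% interval of -0.19 to 0.26 (edgeR adjusted p = 0.90). With WT replicate 2 left out it was -0.02, so no direction can be given.

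Cdkn1c, which encodes p57, was at a low level throughout, with 66 to 264 counts per library. It had 11.6, 7.58 and 10.1 CPM in WT and 3.45, 5.32 and 5.08 CPM in the Smad4 KO after DSS. The groups did not overlap, and Cdkn1a and Cdkn1c were the 2 tested inhibitors that lay wholly below WT, as did 11.4% of all genes tested. The log2 fold change of Cdkn1c was -1.08 (SE 0.23, 95% interval -1.59 to -0.57), with an edgeR adjusted p of 0.077 that missed the threshold. DESeq2 on the same 6 libraries gave an adjusted p of 0.0012, where it called 3.3% of all genes, and edgeR without a filter on low counts gave 0.013, where it called 1.53%. In edgeR, none of the 7 fits with a library left out passed, with adjusted p from 0.080 to 0.60.

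**Figure D3:**
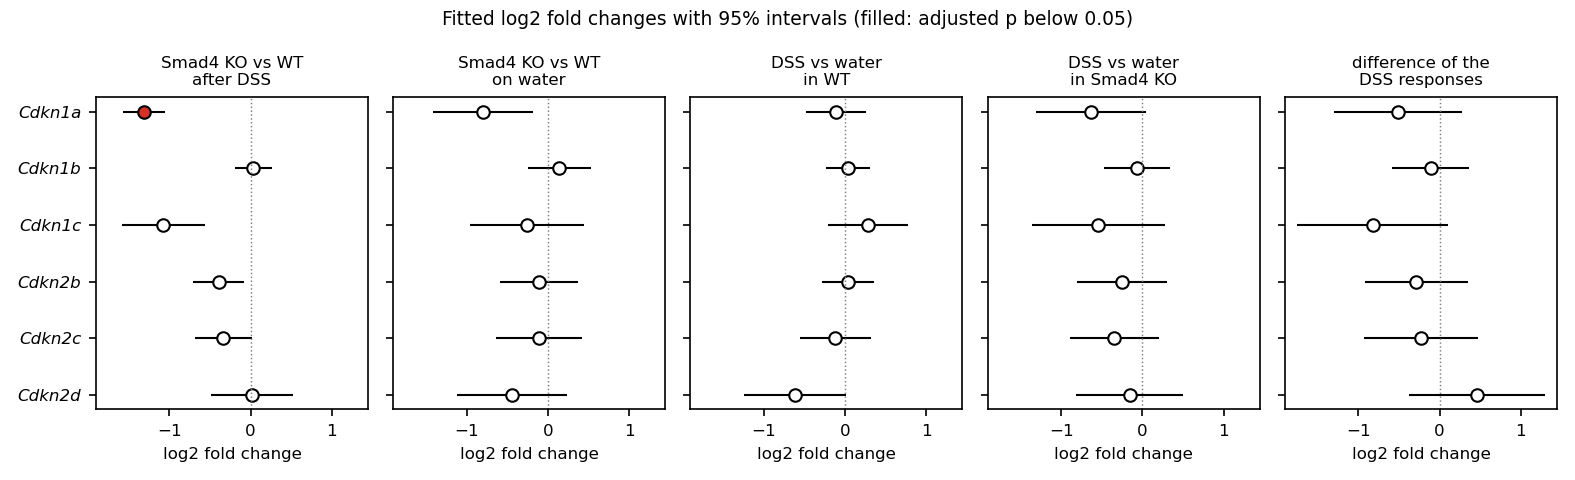
Fitted log2 fold change (horizontal axes) of the 6 inhibitors tested, with 95% intervals (bars), in the 4 comparisons and for the difference of the DSS responses. The single filled point, Cdkn1a in Smad4 KO against WT after DSS at -1.31, marks the one adjusted p below 0.05, and the interval of Cdkn1c in that panel also lies below 0.

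Among the Ink4 genes, Cdkn2b (p15) had 44.9, 39.6 and 44.2 CPM in WT and 27.6, 30.3 and 39.9 CPM in the Smad4 KO after DSS. Smad4 KO replicate 3 lay just above the lowest WT library, and the log2 fold change was -0.39 (SE 0.14, edgeR adjusted p = 0.24). Cdkn2c (p18) had 22.2, 15.9 and 23.7 CPM in WT and 16.9, 15.3 and 16.5 CPM in the Smad4 KO, again with overlap and a log2 fold change of -0.34 (SE 0.16, edgeR adjusted p = 0.34).

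Cdkn2d (p19) had 3.13, 4.71 and 3.66 CPM in WT and 3.87, 3.74 and 4.01 CPM in the Smad4 KO. The KO libraries lay inside the WT range and the log2 fold change was 0.02, with a 95% interval of -0.49 to 0.53 (edgeR adjusted p = 0.98). Its sign turned with single libraries left out.

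Cdkn2a was below the filter. It had 1, 6 and 7 reads in WT replicates 1 to 3 after DSS and none in any of the 3 Smad4 KO libraries after DSS. On water it had a single read in WT replicate 1 and none in the other 7 libraries. Over the groups after DSS this was 14 of 64489831 counts in WT against 0 of 55120851 in the Smad4 KO, which allows up to 3 counts. Against that limit the WT level was at least 3.99-fold higher if the 14 WT reads are taken as counted, with no allowance for their own counting error, and WT replicate 1, at 0.0460 CPM, did not exceed the limit of 0.0544 CPM. An exact two-sided permutation test on the CPM values of 3 against 3 libraries gave p = 0.10, the smallest that design allows. Such limits cover counting error only, and the reads cannot be assigned to p16 or Arf. Cdkn2a spans 88920377 to 88940557 of chromosome 4 in mm9, and 11640 bases separate it from the annotated span of Cdkn2b. Both genes are on the minus strand.

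Taking the 6 tested inhibitors together, 4 had negative and 2 positive log2 fold changes in Smad4 KO against WT after DSS, with a median of -0.36 beside 0.00 for all genes tested. An unadjusted p under 0.05 was reached by 3 of the 6 (Cdkn1a, Cdkn1c and Cdkn2b), and by 15.4% of all genes tested.

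**Figure D4:**
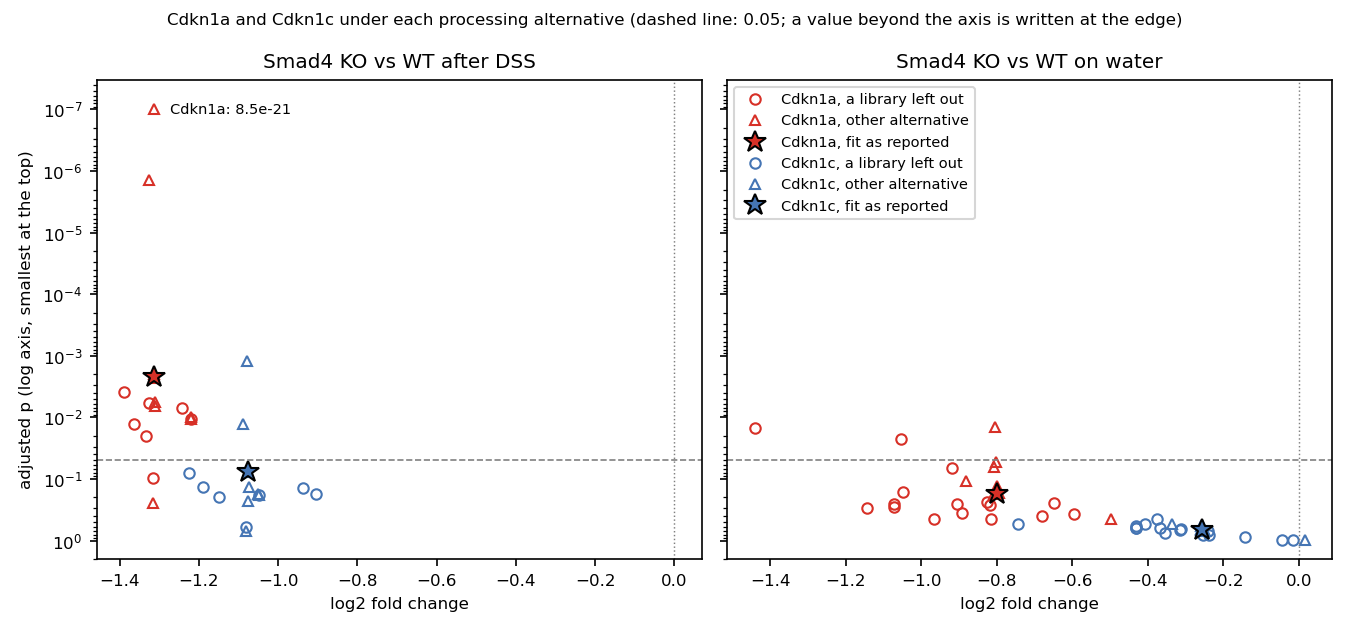
Log2 fold change (horizontal axes) and adjusted p (vertical log axis, smallest at the top) of Cdkn1a and Cdkn1c for Smad4 KO against WT, after DSS (left) and on water (right), one point for each processing alternative and a star for the fit as reported. After DSS the log2 fold changes of Cdkn1a stay between -1.39 and -1.22 while its adjusted p runs from 8.5e-21 to 0.25, and on water they spread from -1.44 to -0.50.

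On water, the comparison of Smad4 KO with WT gave no call for any inhibitor with edgeR, with 1 gene called in all (0.00661% of those tested). An unadjusted p under 0.05 was reached by Cdkn1a alone of the 6, and by 20.4% of all genes. Cdkn1a had 157.4, 213.2, 159.7 and 133.5 CPM in WT replicates 1 to 4 and 141.2, 51.6, 70.6 and 117.8 CPM in the libraries labelled Smad4 KO. The group overlapped WT through replicate 1, the library with Smad4 at the WT level. Over all 4 the log2 fold change was -0.80 (SE 0.28, edgeR adjusted p = 0.18).

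Without that library, Cdkn1a in the other 3 lay below every WT library, as 7.66% of all genes tested did. The log2 fold change was then -1.05 (SE 0.28) with an edgeR adjusted p of 0.16 in the fit of the water libraries and 0.023 when all 13 remaining libraries were fitted together, where 7.61% of the genes were called. Leaving out replicate 4 as well, the library with 117.8 CPM and 21.4% mitochondrial counts, gave -1.44 (edgeR adjusted p = 0.015, with 12.5% of the genes called), and DESeq2 on all 14 libraries gave -0.80 (adjusted p = 0.014, with 17.6% called). With the prefix of the library names as a block it was -0.50 (edgeR adjusted p = 0.44). Whether the mitochondrial share or the prefix has a part in these values was not tested.

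The other inhibitors varied among the Smad4 KO libraries on water without separating from WT. Cdkn1c had 9.77, 6.96, 7.003 and 8.34 CPM in WT and 8.27, 9.06, 3.13 and 6.47 CPM in the Smad4 KO, where replicate 3 was the lowest (log2 fold change -0.26, edgeR adjusted p = 0.69). Cdkn1b had 65.5 to 75.7 CPM in WT and spread from 55.9 CPM in replicate 4 to 97.2 CPM in replicate 2 of the Smad4 KO (log2 fold change 0.14, edgeR adjusted p = 0.68). Cdkn2b went the other way within these libraries, lowest in replicate 2 with 24.3 CPM and highest in replicate 4 with 52.2 CPM, against 35.8 to 50.5 CPM in WT (log2 fold change -0.11, edgeR adjusted p = 0.81).

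Cdkn2c had 16.5 to 25.8 CPM in WT and 12.0 to 25.4 CPM in the Smad4 KO on water (log2 fold change -0.11, edgeR adjusted p = 0.83). Cdkn2d had 4.30 to 7.16 CPM in WT and 3.15 to 5.42 CPM in the Smad4 KO (log2 fold change -0.44, edgeR adjusted p = 0.44). Both groups overlapped for both genes. Without replicate 1 the log2 fold changes were 0.097 for Cdkn1b, -0.37 for Cdkn1c, -0.10 for Cdkn2b, -0.22 for Cdkn2c and -0.53 for Cdkn2d, with edgeR adjusted p from 0.44 to 0.87. Each of the 5 inhibitors other than Cdkn1a kept an adjusted p above the threshold under every alternative run on water.

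The DSS response in WT asks whether the inhibitors move in the first days of injury while Smad4 is present. None of the 6 was called, with edgeR or with DESeq2, and none had an unadjusted p under 0.05, although 24.2% of all genes tested did (3662 genes). After adjustment edgeR called 0% of the genes and DESeq2, on these 7 libraries, 11.7%. Cdkn1a was 153.6 ± 18.3 CPM (SD, n = 3) after DSS and 165.9 ± 33.7 CPM (n = 4) on water, a log2 fold change of -0.11 with a 95% interval of -0.48 to 0.26. With the prefix of the library names as a block it was -0.36 (edgeR adjusted p = 0.37), and without WT water replicate 2 it was 0.043. Cdkn2d had the largest fitted change, from 4.30 to 7.16 CPM on water to 3.13 to 4.71 CPM after DSS (log2 fold change -0.62, 95% interval -1.25 to 0.01, edgeR adjusted p = 0.21). The 5 others ranged from -0.12 for Cdkn2c to 0.28 for Cdkn1c.

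In the Smad4 KO, DSS against water called none of the 6 inhibitors, with edgeR or DESeq2, and 1 gene in all with edgeR (0.00661% of those tested). None of the 6 had an unadjusted p under 0.05, which 6.37% of all genes had. All 6 log2 fold changes were negative, from -0.63 for Cdkn1a (SE 0.31, edgeR adjusted p = 0.76) to -0.07 for Cdkn1b, with a median of -0.30 beside -0.02 for all genes. The value for Cdkn1a rested on the library labelled replicate 1 of the water group and on replicate 4. Without replicate 1 its log2 fold change was -0.38, and without both it was 0.02. With the prefix of the library names as a block in all 14 libraries it was -1.09 (edgeR adjusted p = 0.38). Every Smad4 KO library after DSS has the prefix D, and no Smad4 KO library on water has it. Within the Smad4 KO, DSS and prefix therefore cannot be told apart, and the blocked value rests on the prefix difference among WT libraries. Without replicate 1 all 6 values were still negative, from -0.42 for Cdkn1c to -0.014 for Cdkn1b, and none was called.

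The difference between the DSS responses of the 2 genotypes, tested as an interaction in all 14 libraries, was called for none of the 6 inhibitors, with edgeR or DESeq2, and for 1 gene in all with edgeR (0.00661%). None of the 6 had an unadjusted p under 0.05, which 7.5% of all genes had. For Cdkn1a it was -0.52 (95% interval -1.31 to 0.27, edgeR adjusted p = 0.72) and for Cdkn1c -0.82 (95% interval -1.75 to 0.11, edgeR adjusted p = 0.66). Dropping replicate 1 of the Smad4 KO water group gave -0.26 for Cdkn1a (edgeR adjusted p = 0.83) and -0.70 for Cdkn1c (edgeR adjusted p = 0.67), and with each of the 14 libraries left out in turn that for Cdkn1a ran from -0.72 to -0.26. The call of Cdkn1a after DSS is therefore not shown to differ from its value on water.

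The kinases and cyclins that the inhibitors bind were not called by edgeR in any comparison. After DSS, 11 of the 12 in the list had positive log2 fold changes in Smad4 KO against WT, with a median of 0.16. An unadjusted p under 0.05 was reached by 3 (Cdk4, Ccnd2 and Ccne2), beside 15.4% of all genes, and DESeq2 called 1 (Ccnd2), beside 3.3% of all genes. Cdk4, the target of the Ink4 proteins, had 104.1, 92.7 and 116.2 CPM in WT and 138.1, 123.9 and 144.7 CPM in the Smad4 KO after DSS. The groups did not overlap, as for 10.4% of all genes that lay wholly above WT, and the log2 fold change was 0.38 (SE 0.11, edgeR adjusted p = 0.16). Cdk2, the main partner of cyclin E, gave 0.21 and Cdk6 0.13, with edgeR adjusted p of 0.34 and 0.79.

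Ccnd1 (cyclin D1) had its largest fitted change between water and DSS in WT. It was at 34.3 to 72.4 CPM in WT on water and 99.8 to 140.5 CPM in WT after DSS, with a log2 fold change of 1.14 and an edgeR adjusted p of 0.088, and DESeq2 called it there. In the Smad4 KO it was at 60.0 to 106.2 CPM on water and 118.0 to 140.8 CPM after DSS (log2 fold change 0.69, edgeR adjusted p = 0.66, and 0.61 with 0.74 without water replicate 1). After DSS the genotypes gave a log2 fold change of 0.20 (edgeR adjusted p = 0.53). Ccne1 (cyclin E1) was between 6.47 and 12.9 CPM in all 14 libraries.

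The genes of the p53 axis lay on both sides of 0. Of its 17 genes, 8 had positive and 9 negative log2 fold changes in Smad4 KO against WT after DSS, with a median of -0.03. None was called by edgeR or DESeq2, and 5 of the 17 had an unadjusted p under 0.05, beside 15.4% of all genes. Trp53 itself was at 49.3 to 64.4 CPM in WT and 54.9 to 71.4 CPM in the Smad4 KO (log2 fold change 0.16, edgeR adjusted p = 0.59). Mdm2, a p53 target and its ubiquitin ligase, was at 39.7 to 47.2 CPM in WT and 30.2 to 35.2 CPM in the Smad4 KO (log2 fold change -0.34, SE 0.11, edgeR adjusted p = 0.21).

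Among the 16 transcriptional regulators of these genes, Smad4 was called lower by edgeR and no other gene was called after DSS. DESeq2 called 4 of the 16 (Smad4, Klf4 and Klf6 lower and Rnf2 higher), beside 3.3% of all genes. In edgeR the log2 fold changes were -0.48 for Klf4, -0.56 for Klf6 and 0.48 for Rnf2 (edgeR adjusted p = 0.094, 0.062 and 0.092). An unadjusted p under 0.05 was reached by 5 of the 16, beside 15.4% of all genes. Myc, a known repressor of Cdkn1a and Cdkn2b, gave a log2 fold change of 0.02 with a 95% interval of -0.20 to 0.23 (edgeR adjusted p = 0.95). The list of 13 Rb and E2F genes had 5 positive and 8 negative values with a median of -0.05, and the 8 genes of Kip protein turnover, which include the ubiquitin ligase subunit Skp2, had 6 positive and 2 negative values with a median of 0.07. The 14 genes of replication and mitosis had 9 positive and 5 negative values and a median of 0.12. None of these 3 lists held a gene called by edgeR or DESeq2, and an unadjusted p under 0.05 was reached by 1 of 13, 1 of 8 and 2 of 14 genes, beside 15.4% of all genes.

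Of the 7 neighbours of Cdkn1c from its imprinted region that could be tested, 5 had positive and 2 negative log2 fold changes in Smad4 KO against WT after DSS, with a median of 0.02. None was called by edgeR or DESeq2, and H19 alone of the 7 had an unadjusted p under 0.05, beside 15.4% of all genes. H19 and Igf2 were near the floor, with means of 6.17 and 7.33 counts per library in this comparison. Mtap, next to Cdkn2a, gave 0.21 (edgeR adjusted p = 0.50).

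**Figure D5:**
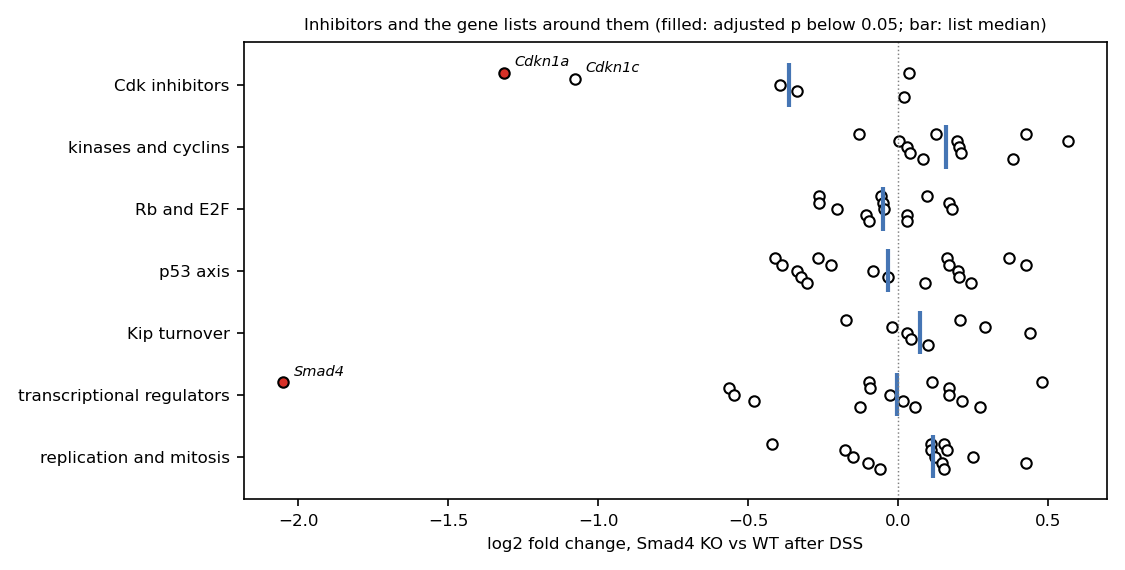
Log2 fold change in Smad4 KO against WT after DSS (horizontal axis) of each tested inhibitor and of each gene of 6 lists around them (rows), with the list median as a blue bar. Cdkn1a at -1.31 and Smad4 at -2.05 are the only filled points, those with an adjusted p below 0.05, and the medians of the 6 lists lie between -0.05 and 0.16.

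Markers of cell types moved with the same comparison, in which edgeR called 0.331% of all genes tested higher and 0.416% lower. All 7 surface colonocyte markers had negative log2 fold changes in Smad4 KO against WT after DSS, 3 of them called (Krt20, Car4 and Aqp8), and their summed level was 5156 to 5574 CPM in the Smad4 KO and 5705 to 6942 CPM in WT. The others were closer to no change, with -0.04 for Slc26a3, -0.07 for Ceacam1, -0.11 for Car1 and -0.19 for Guca2a. All 8 general epithelial markers were negative too, and none was called by edgeR or DESeq2. Their median was -0.12, beside -0.19 for the surface markers. p21 is known to be high in differentiated cells of the upper crypt and surface. Of the 5 goblet cell markers 4 had negative values and 1 a positive one, and Fcgbp was called lower. The 5 enteroendocrine markers had 2 positive and 3 negative values. None of them was called by edgeR, and DESeq2 called Chgb higher, beside 3.3% of all genes called by DESeq2. The 5 crypt base stem cell markers were split, with 3 positive and 2 negative values. Smoc2 was called higher (log2 fold change 1.53, edgeR adjusted p = 0.0048), Lgr5 gave 1.35 (edgeR adjusted p = 0.070), and Ascl2 and Axin2 gave -0.81 and -0.31 (edgeR adjusted p = 0.19 and 0.49).

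All 5 tested fibroblast markers of 7 had positive values, and Lum and Pdgfra were below the filter. Of the 5, 3 were called (Col1a1, Col1a2 and Col3a1), beside 0.331% of all genes called higher. Their summed level was 9.29 to 15.5 CPM in the Smad4 KO and 1.97 to 4.76 CPM in WT after DSS, against 15500 to 16400 CPM for the epithelial markers in the same KO libraries. The smooth muscle, endothelial and immune marker sums were at most 23.8 CPM in either group after DSS. No gene of these lists was called by edgeR or DESeq2, with 2, 1 and 0 genes at an unadjusted p under 0.05, beside 15.4% of all genes. The part of these cell types in the level of Cdkn1a was not tested.

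The genes whose levels followed each inhibitor most closely over the 14 libraries were ranked by Pearson's correlation of log2 CPM among 11565 genes. The libraries share the 4 groups, so the values describe the same design and carry no test. Closest to Cdkn1a were Slc24a6 (r = 0.94), Id1 (r = 0.93) and Srrd (r = 0.93). Ranked by Spearman's correlation instead, they were at places 34, 21 and 5. Id1, an inhibitor of basic helix-loop-helix factors and a known target of BMP signaling, was at 216.3 to 257.8 CPM in WT after DSS and 76.6 to 94.0 CPM in the Smad4 KO. On water it was at 276.7 to 454.7 CPM in WT and 47.9 to 302.7 CPM in the libraries labelled Smad4 KO.

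Closest to Cdkn1c was Trpm5 (r = 0.90), a cation channel gene that lies 363707 bases from it on chromosome 7 of mm9. Trpm5 was at 8.09 to 10.7 CPM in WT and 7.17 to 7.82 CPM in the Smad4 KO after DSS. Cdkn2c was followed by Racgap1, Arhgap19 and Aurka (r = 0.87, 0.87 and 0.86), of which Racgap1 and Aurka act in cell division. Cdkn1b was followed by Yy1, Pnrc2 and Lancl2 (r from 0.89 to 0.90), Cdkn2b by Hpcal1, Sil1 and Tradd (r from 0.87 to 0.91) and Cdkn2d by Fgd2, Trim62 and Zfp764 (r from 0.86 to 0.89). By Spearman's correlation Trpm5 and Fgd2 kept place 1 and Sil1 place 2. The other genes named here were lower, down to place 74 for Hpcal1 and 109 for Pnrc2.

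Within the family, the log2 CPM of Cdkn1a and Cdkn2b had the highest correlation over the 14 libraries (r = 0.73), and those of Cdkn1b and Cdkn2c the next (r = 0.66). Cdkn1b and Cdkn2b had a negative correlation over all libraries (r = -0.60). In the Smad4 KO libraries, on water and after DSS alike, the library highest in one was the lowest in the other. After DSS, replicate 1 had 78.2 CPM of Cdkn1b and 27.6 of Cdkn2b, and replicate 3 had 69.9 and 39.9. WT libraries did not show this. There, replicate 3 on water was lowest in both genes (65.5 and 35.8 CPM), as was replicate 2 after DSS (67.0 and 39.6 CPM).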

How the data were processed

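RNA-seq of isolated mouse colon epithelium was analysed in 14 libraries, grouped by their labels. The authors aligned reads to mm9 with Hisat2, counted them with featureCounts and deposited whole-number counts per gene, without normalization. The strand setting is not given in the sources used here. Positions and exon lengths came from GENCODE M1, which names 37310 of the 37680 genes. The 15127 genes that reached 10 counts in 3 or more of the libraries entered edgeR 4.0.16 (TMM, quasi-likelihood test) with the groups compared, or on all libraries for the interaction, with Benjamini-Hochberg adjustment over all and a threshold of 0.05. Earlier results of these data were known when the members, lists and fits were chosen.

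The genes named are the 7 inhibitors, Smad4, called genes of the lists, the partners Cdk2, Cdk4, Cdk6, Ccnd1 and Ccne1 with Trp53, Mdm2 and Myc where fewer than 3 were called, and for each inhibitor the 3 genes (mean of at least 50 counts) most like it in log2 CPM (prior count 2). Cell type markers were chosen after the data were known, and values of the neighbours of Cdkn1c and of Kip turnover are given as lists. Kcnq1ot1 and Adgre1 could not be matched. Alternatives were DESeq2 1.42.0, other models, scalings, filters and blocks, and left-out libraries. Models were tested on simulated data. R 4.3.3 and Python 3.11.15 were used.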

Additional observations from a re-analysis of the deposited data

Results flagged for a closer look

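In the 13 groups of 4 libraries with varying values of an inhibitor, 1 value stood apart from the others by Dixon's criterion, which flags about 1 in 20 groups by chance. It was Cdkn2a in WT water replicate 1, at 0.0370 CPM, which is a single read, with 0 in the other 3 libraries of the group. Where the other 3 values are 0, the criterion flags any value above 0, so the rate of 1 in 20 does not apply to this flag.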

How the results depend on the processing

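Of the log2 fold changes of the inhibitors refitted with libraries left out, 327 kept their direction and their side of the threshold, 24 changed direction, 2 became called and 1 was no longer called. Under the other alternatives 230 kept both, 6 changed direction, 3 became called and 1 was no longer called. After DSS, Smad4 KO against WT called 113 genes, and 2 with all 14 libraries in 1 model, 8 with 13, 499 with DESeq2 on the groups compared, 51 with DESeq2 on all 14, 345 without a filter on low counts and 42 with the name prefix as a block or with the D libraries alone. With a library left out it called 27 (without Smad4 KO replicate 2) to 96 (without WT replicate 1). Of the inhibitors it called 0 in the models of 14 and 13 libraries and 2 with DESeq2 on the groups compared or without the filter.

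On water the same comparison called 1 gene, and 1276 with all 14 libraries in 1 model, 1151 with 13, 768 and 2659 with DESeq2 on the groups compared and on all 14, 55 without the filter and 296 with the prefix as a block. With libraries left out it called 1 to 1896 genes (the highest without Smad4 KO replicates 1 and 4, and 1740 without replicate 4 alone) and 0 to 1 inhibitor, and DESeq2 on all 14 and the model of 13 called 1 inhibitor, Cdkn1a. DSS against water called 0 genes in WT, and 1777 and 851 with DESeq2 on the groups compared and on all 14, 457 without the filter, 2 with the prefix as a block, 9 with the D libraries alone and 0 to 418 with a library left out, the highest without WT water replicate 2. In the Smad4 KO it called 1 gene, and 10 with all 14 libraries in 1 model, 5 with 13, 71 and 70 with DESeq2, 19 without the filter and 0 to 3 with libraries left out. The interaction was called for 1 gene, for 8 with DESeq2, for 2 without the filter and for 1 to 5 with a library left out. The causes were not tested.

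None of the log2 fold changes that changed sign was called, before or after. Cdkn2d after DSS gave -0.014 with the prefix as a block and -0.012 in the D libraries, Cdkn1c and Cdkn2b on water gave 0.015 and 0.035 with the prefix as a block, and Cdkn2b in the WT response gave -0.10 with the block and -0.10 in the D libraries. With libraries left out, the Smad4 KO against WT values after DSS ran from -0.024 to 0.12 for Cdkn1b and from -0.11 to 0.20 for Cdkn2d, and on water from -0.12 to 0.28 for Cdkn1b, from -0.36 to 0.15 for Cdkn2b and from -0.42 to 0.080 for Cdkn2c. The WT response to DSS ran from -0.21 to 0.043 for Cdkn1a, from -0.043 to 0.10 for Cdkn1b, from -0.036 to 0.15 for Cdkn2b and from -0.24 to 0.037 for Cdkn2c. The Smad4 KO response ran from -0.83 to 0.017 for Cdkn1a, which had -0.63 with all libraries, from -0.20 to 0.20 for Cdkn1b, from -0.51 to 0.0029 for Cdkn2b and from -0.28 to 0.20 for Cdkn2d, and the interaction of Cdkn1b from -0.25 to 0.0041.

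Replicate numbers did not pair the libraries. The correlation of the deviations of same-numbered libraries ran from -0.08 to -0.05 after DSS, from -0.02 to 0.35 on water, from -0.04 to 0.06 in WT and from -0.08 to 0.01 in the Smad4 KO. With the replicate block, 57 genes were called after DSS, 473 on water, 54 in the WT response and 15 in the Smad4 KO response, and Cdkn1a was called after DSS with a log2 fold change of -1.31 (edgeR adjusted p = 0.0065). Leaving out the library labelled Smad4 KO water replicate 1 together with another library, and the prefix as a block in all 14 libraries for the Smad4 KO response, were alternatives chosen after seeing the data. The prefix could not be fitted as a block with the 4 and 3 Smad4 KO libraries alone, and the D libraries alone could not be used on water or in the Smad4 KO. Counts of Cdkn1c and Cdkn2d under 265 per library limit the precision of their values, and of Cdkn2a a count of 0 allows up to 0.0544 CPM over the Smad4 KO libraries after DSS.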
